A study of Mus musculus with 4 samples.

Results

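Podocytes are the epithelial cells that wrap the capillaries of the kidney glomerulus, and the slit diaphragm between their foot processes is the last barrier of the filter. The RNA-seq data on 8 genes of these cells were taken out of a table of 55401 genes, by matching Ensembl gene identifiers with the version number dropped, and all 8 were found in each of the 4 libraries. They are Nphs1, Podxl, Wt1, Synpo, Ptpro, Cdkn1c, Plce1 and Magi2. The main question was how their mRNA levels differed between the kidney of mice with CLP (cecal ligation puncture, which lets gut bacteria into the abdomen and causes sepsis) and the kidney of mice that had also received melatonin (MLT), with heart as the other tissue. All mice were C57BL/6, described in the study's methods as males of 8 weeks. For the kidney CLP + MLT group, these methods give melatonin at 25 μg/ml in the drinking water, dissolved with 0.1% ethanol, for 14 days before surgery on day 15, and kidneys were taken 24 h after surgery. For the hearts no dose or time is stated. The 4 groups, kidney CLP, kidney CLP + MLT, heart CLP and heart CLP + MLT, had 1 library each. Whether a library came from 1 mouse or a pool is not stated, and no sham library was analysed here.

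Nephrin, the product of Nphs1, spans the slit between foot processes and hands signals to the actin inside them. The diaphragm keeps proteins in the blood, and podocytes are known for losing it in proteinuric disease. Few genes are used by podocytes alone: podocalyxin (Podxl) also coats endothelial cells, Wt1 is also a gene of the epicardium and mesothelium, and Cdkn1c, Plce1 and Synpo are used in many tissues.

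Between 15883057 and 22927905 reads were counted on genes per library, and genes of the mitochondrial genome took from 14.8% to 36.0% of them. Levels are given as CPM (counts scaled to a common library total) after TMM scaling over the 4 libraries, and as CPM per kb of exon when genes are compared with each other. The tissue labels were checked with defining markers. Myh6, a myosin of cardiomyocytes, had 69 and 61 counts in the kidney libraries against 208975 and 158174 in the heart libraries. Umod, the uromodulin gene of the thick ascending limb, had 94985 and 50359 counts in kidney against 459 and 468 in heart. With 1 library per group, the spread between mice is unknown for every difference below, and no test was made. Intervals are 95% exact intervals on the reads and cover counting error only.

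Among the membrane proteins of the filter, Podxl and Nphs1 went apart in kidney. Nphs1 (ENSMUSG00000006649.17, mm10 chromosome 7 from 30458315 to 30487223, forward strand), the backbone of the slit diaphragm, had 1134 counts in the CLP kidney library and 756 in the CLP + MLT one. These were 41.3 and 43.8 CPM, a log2 ratio of CLP + MLT over CLP of 0.09 (−0.05 to 0.22). A difference in Nphs1 was therefore not detectable at this depth. Podxl (ENSMUSG00000025608.9, chromosome 6 from 31519488 to 31563981, reverse strand) encodes the negatively charged sialomucin on the free surface of podocytes and had 5429 and 2213 counts. Its level was 198 CPM in the CLP library and 128 CPM in the CLP + MLT library, 1.54-fold lower, with a log2 ratio of −0.62 (−0.69 to −0.55). Ptpro (ENSMUSG00000030223.14, chromosome 6 from 137252319 to 137463233), a receptor tyrosine phosphatase of the same surface, had 501 and 252 counts. Its 18.2 and 14.6 CPM gave a log2 ratio of −0.32 (−0.54 to −0.10), an interval below 0 but short of a 1.5-fold difference.

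Of the genes that link the diaphragm to the cell, the scaffold gene was the lowest after Podxl. Magi2 (ENSMUSG00000040003.18, chromosome 5 from 19227036 to 20704792) encodes a membrane-associated guanylate kinase that binds nephrin, and had 166 counts in the CLP library against 71 with melatonin. The log2 ratio was −0.55, with a wide interval of −0.98 to −0.14. Plce1 (ENSMUSG00000024998.17, chromosome 19 from 38481109 to 38785030), a phospholipase C gene needed for podocyte maturation, had 252 and 149 counts and a log2 ratio of −0.09 (−0.39 to 0.21). Synpo (ENSMUSG00000043079.17, chromosome 18 from 60593973 to 60660142), which encodes the actin-binding protein synaptopodin of the foot processes, had 1514 and 873 counts, or 55.1 and 50.6 CPM. The log2 ratio was −0.12, and its interval (−0.24 to −0.0012) ended just below 0.

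The nuclear regulators went unequal ways. Wt1 (ENSMUSG00000016458.15, chromosome 2 from 105126529 to 105173616), the zinc finger transcription factor that keeps podocytes differentiated, had 441 and 226 counts and a log2 ratio of −0.29 (−0.53 to −0.06). Cdkn1c (ENSMUSG00000037664.13, chromosome 7 from 143458339 to 143461050), a cyclin-dependent kinase inhibitor that holds podocytes out of the cell cycle, had 1268 and 810 counts. It stood at 46.2 and 46.9 CPM, a log2 ratio of 0.03 (−0.10 to 0.15).

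In all, 1 of the 8 genes, Podxl, was lower in the CLP + MLT kidney library by at least 1.5-fold and 0 were higher. Among all 16932 genes kept (those averaging 10 counts or more), 11.6% were lower by that much and 11.0% were higher, so that 1 of 8 was close to the background share. The median log2 ratio of the 8 genes was −0.21, against 0.0029 for all genes, and 6 of the 8 lay below 0. The intervals of 5 of them, Podxl, Wt1, Synpo (upper bound −0.0012), Ptpro and Magi2, lay below 0, and no interval lay above 0. Over all genes kept, 25.6% had an interval below 0 and 26.2% one above 0. These go down to an average of 10 counts, where intervals are wider than for the 8, so the shares are not like for like. In bulk tissue, fewer podocytes and less RNA per podocyte cannot be told apart. Scaled by library size only, the median of all genes moved to −0.19 and that of the 8 genes to −0.40, Magi2 joined Podxl past 1.5-fold (where 18.7% of all genes were lower by that much), and Nphs1 (−0.11) and Cdkn1c (−0.17) turned below 0. Of all genes past 1.5-fold in kidney, 48.6% were higher under the TMM scaling and 26.6% under library size only.

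**Figure D1:**
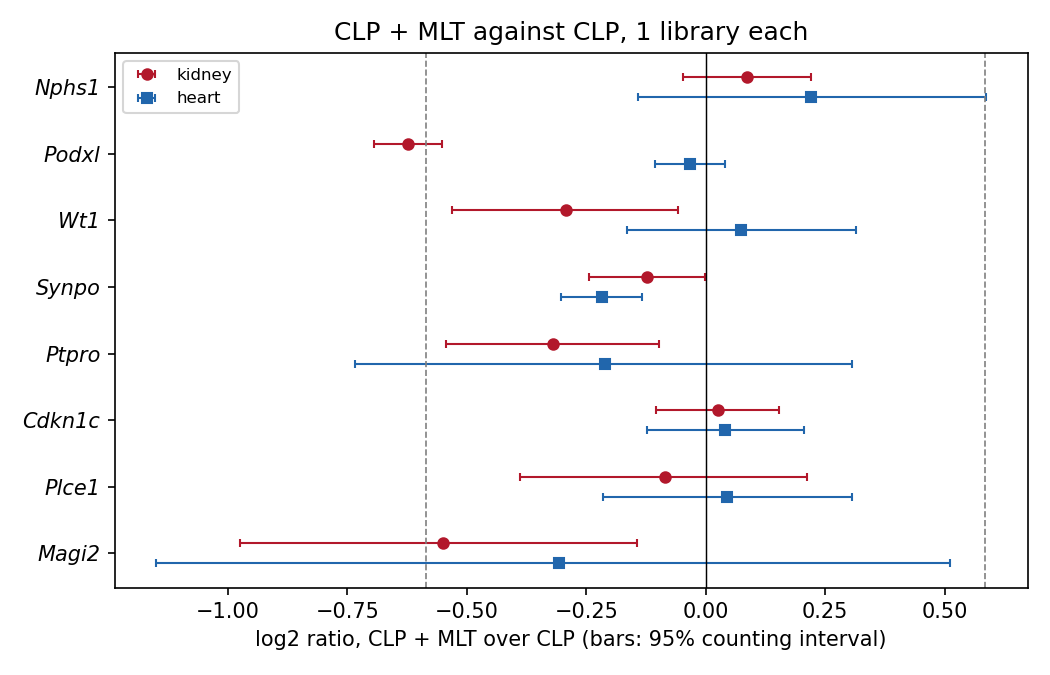
Log2 ratio of CLP + MLT over CLP (x axis) for the 8 genes in kidney and in heart. Points are single libraries compared, bars are 95% counting intervals and dashed lines mark a 1.5-fold difference. In kidney Podxl (−0.62) lies past the lower line while Nphs1 (0.09) and Cdkn1c (0.03) lie near 0, and in heart no gene is past either line.

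Differences within a library do not depend on scaling, so the genes were also compared in pairs by the odds ratio of their reads, with an exact interval. Of the 28 pairs in kidney, 14 had an interval without 0, and 6 of these 14 included Podxl. Podxl lay below Nphs1 by a log2 difference of 0.71 (interval of Nphs1 minus Podxl 0.56 to 0.86). Podxl and Magi2 could not be told apart, with −0.07 (−0.49 to 0.36), nor could Nphs1 and Cdkn1c, with 0.06 (−0.13 to 0.25). As far as counting error goes, the genes therefore did not move as 1 block between the kidney libraries. How often pairs of other genes differ in this way was not counted. In heart 4 of the 28 pairs had an interval without 0, 1 of them with Podxl. Nphs1, Ptpro and Magi2 had far fewer counts in heart and so wider intervals. The counts of pairs in the tissues are therefore not like for like. Podxl alone held 50.7% of the summed reads of the 8 genes in the CLP kidney library and 41.4% in the CLP + MLT one. The sum of all 8 had a log2 ratio of −0.33 (−0.38 to −0.28), and without Podxl it was −0.08 (−0.14 to −0.01).

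In heart the log2 ratios of the 8 genes ran from −0.31 to 0.22, a spread of 0.53 against 0.71 in kidney. None was past 1.5-fold in either direction, where 23.5% of the 15871 genes kept in heart were, and the median log2 ratio was 0.0037 against 0.0023 for all genes. Podxl had 3021 and 2932 counts and so a log2 ratio of −0.03 (−0.11 to 0.04), against −0.62 (−0.69 to −0.55) in kidney. Synpo, with 2449 and 2092 counts, was the 1 gene whose interval left 0, at −0.22 (−0.30 to −0.13). Wt1 had 284 and 297 counts, Cdkn1c 601 and 614, and Plce1 242 and 248, and their intervals spanned 0. Ptpro had 70 and 60 counts and Magi2 30 and 24, too few to detect a moderate difference. The difference between the tissues was not tested for any gene.

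Per length, the order of levels in the CLP kidney library ran from Podxl (36.0 CPM per kb) over Cdkn1c (22.6), Nphs1 (6.24), Synpo (5.78), Ptpro (2.71) and Wt1 (2.59) to Plce1 (0.574) and Magi2 (0.533). The neighbours Nphs1 and Synpo, Ptpro and Wt1, and Plce1 and Magi2 had overlapping counting intervals. In the CLP + MLT kidney library Podxl, at 23.4 CPM per kb, was next to Cdkn1c at 23.0, again with overlapping intervals. In heart the order changed: Podxl still led with 37.2 and 37.6 CPM per kb, Synpo stood at 17.4 and 15.4, and Nphs1 only at 1.23 and 1.48. Exon lengths were those of all annotated isoforms joined, so that levels of genes with long rare isoforms are too low.

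**Figure D2:**
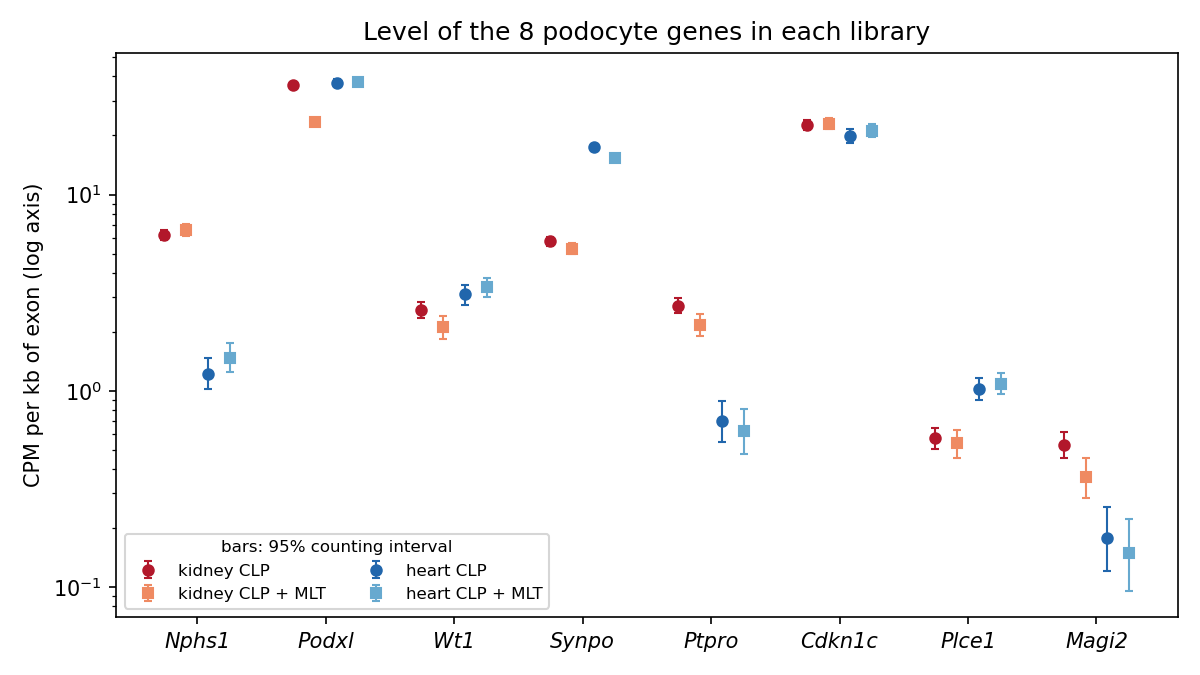
Level in CPM per kb of exon (log y axis) of the 8 genes (x axis) in the 4 libraries, 1 point per library with its 95% counting interval. Podxl is at 36.0 in the CLP kidney library and 23.4 in the CLP + MLT one, whereas Synpo and Plce1 are higher in both heart libraries than in both kidney libraries.

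Between tissues, 1 of the 8 genes was at least 4-fold higher in kidney than in heart, and 0 were as much lower. Of all genes kept, 16.1% were higher by that much in the CLP libraries and 14.9% in the CLP + MLT libraries, and 29.2% and 28.5% differed by it in either direction. This was Nphs1, with log2 ratios of kidney over heart of 2.34 (2.07 to 2.63) in CLP and 2.16 (1.90 to 2.43) in CLP + MLT. Ptpro followed with 1.94 and 1.78, and Magi2 with 1.56 and 1.27. Cdkn1c was near even, with 0.18 and 0.12. Synpo was lower in kidney, with −1.59 and −1.54, as was Plce1 with −0.83 and −1.01. Podxl was level between the CLP libraries, with −0.05 (−0.11 to 0.02), and lower in kidney between the CLP + MLT libraries, with −0.69 (−0.77 to −0.61). Wt1 was lower in kidney in both pairs, with −0.26 and −0.67. With library size only, every such ratio moves up, the median of the 8 from 0.07 to 0.50 in CLP and from −0.28 to −0.050 in CLP + MLT, Podxl and Wt1 then turn above 0 in CLP, and Ptpro joins Nphs1 past 4-fold, with 2.37 in CLP and 2.01 in CLP + MLT. Other podocyte genes, chosen after their values were seen, were spread over the whole range. Ddn, which encodes dendrin, had 4 and 1 counts in heart against 467 and 276 in kidney, and Lmx1b, a transcription factor gene of podocytes, had 1 and 0 against 81 and 36. Kirrel, which encodes the nephrin relative Neph1, had 151 and 130 counts in heart against 376 and 161 in kidney, which put its heart level at 74.5% and 98.0% of that in kidney. The adaptor and basement membrane lists described below had medians of kidney over heart under 0, −0.46 and −0.76 in CLP. The heart level of Nphs1 was 19.6% of its kidney level in CLP and 22.3% in CLP + MLT, against 1.59% (0.431% to 4.10%) and 0.440% (0.0111% to 2.47%) for Ddn.

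**Figure D3:**
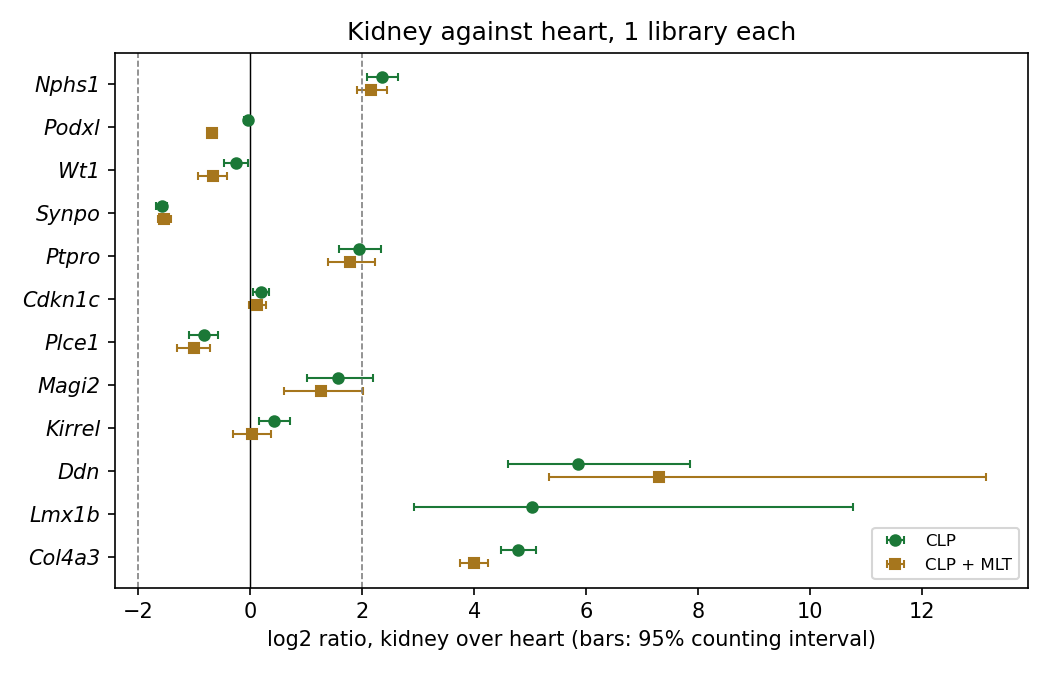
Log2 ratio of kidney over heart (x axis) in the CLP and in the CLP + MLT libraries for the 8 genes and 4 other podocyte genes, with 95% counting intervals and dashed lines at a 4-fold difference. Nphs1 (2.34 and 2.16) is the 1 gene of the 8 past 4-fold, and Ddn (5.86 and 7.29) lies far to the right. Kirrel lies at 0.42 (0.15 to 0.71) in CLP and near 0 (0.03) in CLP + MLT. The point of Lmx1b for CLP + MLT is left out because heart had 0 counts.

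The heart counts of Nphs1 touch a feature of its locus. On the opposite strand, inside Nphs1, the GENCODE annotation places Rps12-ps4, a processed pseudogene of the ribosomal protein gene Rps12. It shares 183 exon bases with Nphs1, all in Nphs1-204, a transcript with a retained intron, and none in an exon of a coding transcript of Nphs1. Rps12-ps4 had 112 and 107 counts in the kidney libraries and 114 and 69 in the heart libraries, next to 120 and 139 for Nphs1 in heart. The shared bases are printed below from the GENCODE M21 transcripts, at mm10 chr7:30484915-30485097 on the forward strand. Capitals mark the longest run, 132 bases, that also occurs without a mismatch on the reverse complement of the Rps12 mRNA (transcript Rps12-201).
Nphs1 and Rps12-ps4: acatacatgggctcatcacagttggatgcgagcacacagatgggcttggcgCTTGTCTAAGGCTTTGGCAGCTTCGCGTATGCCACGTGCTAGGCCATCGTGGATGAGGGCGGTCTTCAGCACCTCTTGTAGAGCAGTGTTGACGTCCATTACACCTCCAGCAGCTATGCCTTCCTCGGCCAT
How many of the Nphs1 reads fell on these bases was not tested, because the files give 1 sum per gene. Nphs1os, an antisense gene that shares 597 exon bases with Nphs1, had 27 and 15 counts in kidney and 0 in heart. With the counts of both antisense neighbours added, the log2 ratio of Nphs1 was 0.14 in kidney and turned from 0.22 to −0.16 in heart. Cdkn1c shares 625 exon bases with the antisense gene Gm44732, which had 274 and 100 counts in kidney, and with these added its log2 ratio there was −0.09. No step that marks strand is described for the libraries, and without one the reads of such partners cannot be told apart. How reads on the shared bases were counted depends on a strand setting that is not stated. The ratios with antisense counts added are therefore uncertain.

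Promoter sequences from RefSeq (GRCm38.p6) were at hand for 4 of the 8 genes, in 5 windows, since Magi2 has 2 starts. The 250 bases before the start were searched on both strands for GNGTGGGNG, a WT1-type motif whose letters also admit sites of the EGR family, and for TAATNA, an LMX1B-type motif, which does not overlap it. Over all 32851 such windows, 12.7% held the first and 24.3% the second. The windows of Nphs1 and of the upstream Magi2 start are shown because these genes were the highest and the lowest of the 4 in the kidney comparison. Each held 1 match of the WT1-type motif, in capitals, and none of the other.
Nphs1, chr7:30459808-30460057, forward strand: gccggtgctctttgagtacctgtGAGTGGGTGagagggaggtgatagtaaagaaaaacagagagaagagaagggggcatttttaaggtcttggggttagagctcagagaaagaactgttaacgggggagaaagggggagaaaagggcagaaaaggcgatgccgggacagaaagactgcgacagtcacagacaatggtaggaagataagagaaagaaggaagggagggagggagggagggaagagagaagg
Magi2, chr5:19226796-19227045, forward strand: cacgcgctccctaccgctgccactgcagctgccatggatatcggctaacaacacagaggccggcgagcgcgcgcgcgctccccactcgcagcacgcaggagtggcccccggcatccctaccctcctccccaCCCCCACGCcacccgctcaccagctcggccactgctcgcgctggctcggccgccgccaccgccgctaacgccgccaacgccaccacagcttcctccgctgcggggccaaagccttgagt
The RefSeq start of Nphs1 lies inside the gene as GENCODE bounds it, so this window is not upstream of the outermost GENCODE start. The Magi2 match reads in the reverse direction. The windows of Ptpro and Plce1 held neither motif, and the other Magi2 window held only the LMX1B-type one. A match of letters is a description of the window and not a bound site, and both the gene near 0 (Nphs1) and the gene at −0.55 (Magi2) had one.

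Further podocyte genes were listed by role from general knowledge, 53 in 5 lists. In kidney 50 passed the filter, with a median log2 ratio of −0.10. Past 1.5-fold, 2 were higher and 0 were lower, a called share of 4.0% against 22.6% of all genes. Most of the listed genes had far more counts than the limit of 10, so these shares are not like for like. Of the 50, 33 lay below 0 and 17 above, against 8423 and 8509 of all 16932 genes kept. Kirrel had 376 and 161 counts in kidney and a log2 ratio of −0.55 (−0.83 to −0.28). Efnb1, which encodes the ligand ephrin-B1, stood at −0.39. Kirrel2, whose gene lies next to Nphs1, was 1 of the higher ones, but on 11 and 18 counts, with 1.33 (0.22 to 2.61). The adhesion list as a whole had a median of −0.11 over 7 genes kept.

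The adaptor and signalling list had a median of −0.17 over 10 genes kept, with 0 past 1.5-fold. Nck2, an adaptor gene whose protein binds phosphorylated nephrin, stood at −0.54 (−0.85 to −0.24) and its relative Nck1 at −0.33. Magi1, a relative of Magi2, went the other way with 565 and 504 counts and 0.51 (0.33 to 0.68). The actin list had a median of −0.20 over 12 genes kept, also with 0 past 1.5-fold. Nes, the intermediate filament gene nestin, lay just short of it at −0.58 (−0.74 to −0.43), followed by Arhgdia at −0.47 and Clic5 at −0.41. The transcription factor list stood on the other side, with a median of 0.26 over 7 genes. Foxc2 was higher past 1.5-fold, from 82 to 92 counts with 0.83 (0.39 to 1.29), Foxc1 and Tcf21 both stood at 0.52, and Wt1 was not in this list. The basement membrane and secreted list had a median of 0.01 over 14 genes with 0 past 1.5-fold, from Itgb1 (−0.35) and Sema3g (−0.29) to Agrn (0.36). In heart, 45 of the 53 genes passed the filter, with a median of 0.09, and 6 were higher and 3 lower past 1.5-fold, a called share of 20.0% that was near the 23.5% of all genes.

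**Figure D4:**
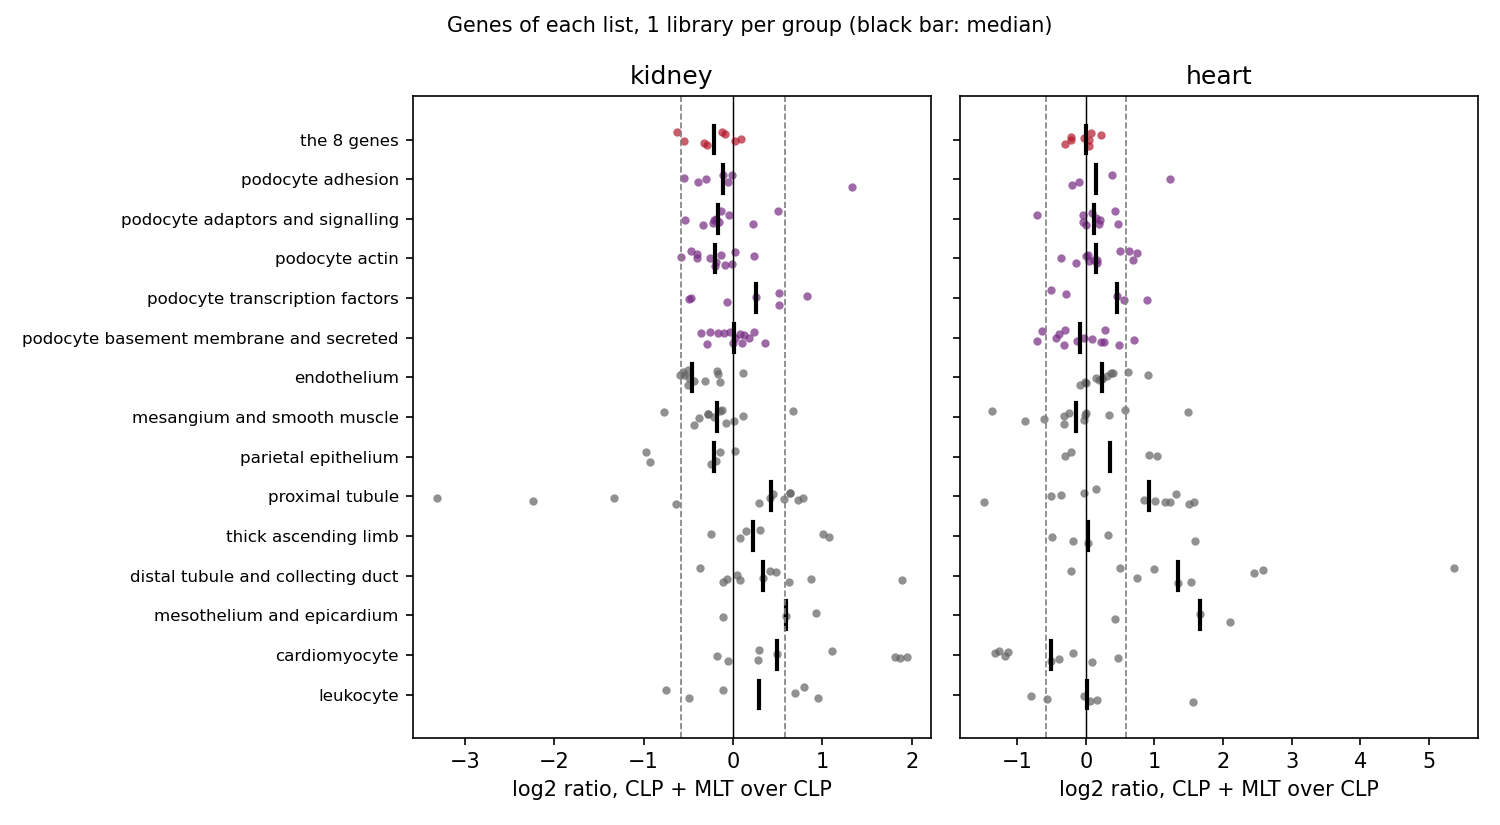
Log2 ratio of CLP + MLT over CLP (x axes) in kidney and heart for the genes of each list that passed the filter, 1 point per gene, with the list's median as a black bar and dashed lines at 1.5-fold. In kidney the median of the 8 genes is −0.21 and that of the endothelial list −0.46, while the medians of the tubule lists are above 0.

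The lists for the cells around the podocyte also had medians below 0 in kidney. Not all of their genes lay below 0, and the part of these cells in the results was not tested. The 12 endothelial genes had a median of −0.46, with 11 intervals below 0 and 0 above, against 25.6% and 26.2% of all genes. Of the 12, 1 gene was lower past 1.5-fold, where 11.6% of all genes were. That count was 7 with library size only (18.7% of all genes) and 0 with upper quartile factors (11.0% of all genes). The summed level of the 12 was 514 CPM in the CLP library and 407 CPM in the CLP + MLT library. Plat, the tissue plasminogen activator gene, stood at −0.49 and Eng, the endoglin gene, at −0.15. Since Podxl is also an endothelial gene, it was set against 2 of them chosen for this after their values were seen: relative to Pecam1 it differed by −0.06 (−0.22 to 0.10), and relative to Ehd3, a gene of glomerular endothelium, by −0.44 (−0.62 to −0.26). In heart the endothelial list had a median of 0.23, with 9 intervals above 0 and 1 below, against 22.7% and 24.1% of all genes. The mesangial and smooth muscle list stood at −0.18 in kidney, from a summed 423 to 332 CPM. Within it Ren1, the renin gene of juxtaglomerular cells, had 4912 and 1810 counts and −0.77, and Tagln stood at −0.28, but 5 of the 12 intervals were below 0 and Gata3, a transcription factor gene of mesangial cells, was higher past 1.5-fold at 0.67. The parietal epithelium list had a median of −0.22, with Pax8 at 0.02 and Pax2 at −0.19. In heart the mesangial and smooth muscle list had a median of −0.14 and the parietal one of 0.35.

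The tubule lists were on the other side in kidney. The proximal tubule list had a median of 0.43 and a summed level of 20763 CPM in the CLP library and 30597 CPM in the CLP + MLT library, most of it from Kap (0.64). Without Kap the sum was 4421 and 5137 CPM. Its 12 members went both ways, with 4 higher and 4 lower past 1.5-fold, against 11.0% and 11.6% of all genes. They ran from Miox (0.79), Slc22a8 (0.73) and Slc34a1 (0.63) to Slc5a2 (−2.23) and Slc5a12 (−3.31). The thick ascending limb had a median of 0.22, with Slc12a1 at 1.07 and Umod at −0.24, and the distal tubule and collecting duct one of 0.33, with Aqp2 at 0.08 and Hsd11b2 at 0.41. The leukocyte list had a median of 0.29 from 6 genes kept (0.02 in heart). Of these 6 in kidney, 3 were higher and 1 lower past 1.5-fold, against 11.0% and 11.6% of all genes. Ptprc, the CD45 gene of leukocytes, stood at 0.95, Itgam at 0.80 and Adgre1 at 0.69. Below 0 were Cd68 at −0.49 (−0.92 to −0.08) and the neutrophil genes S100a9 and S100a8 at −0.74 and −0.11. Cardiomyocyte genes summed to 12.0 and 18.2 CPM in kidney, with Myl2 at 10 and 23 counts. The median of the cardiomyocyte list was 0.49 for kidney and −0.51 for heart. Of the tubule lists, the medians in heart were 0.93 for proximal tubule, 1.34 for distal tubule and collecting duct and 0.04 for thick ascending limb. Their levels in heart were far under those in kidney. The proximal tubule list summed to 858 and 1364 CPM in heart, with Kap at 4352 and 9602 counts. The distal list summed to 48.7 and 89.7 CPM in heart, against 1405 and 1520 in kidney. The thick ascending limb list summed to 59.5 and 80.5 CPM, against 4844 and 5456 in kidney. The source of these heart reads was not tested. The mesothelium and epicardium list, with 3 of 7 genes kept, had medians of 0.59 in kidney and 1.66 in heart and summed to 7.44 and 14.1 CPM in heart, with Tbx18 at 81 and 108 counts, Krt19 at 13 and 42, and Lrrn4 and Muc16 at 0 in all 4 libraries. Tbx18 had 0 counts in both kidney libraries.

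The 5 genes with the smallest Euclidean distance from the median pattern of the 8 (centred log2 CPM over the 4 libraries, 11679 genes averaging 100 counts or more) were Pygo2 (0.0373), Tmem164 (0.0420), Tbc1d10a (0.0428), Gkap1 (0.0451) and Ube3a (0.0467). These are the smallest of all distances, and the median over the 11679 genes was 1.04. The distances of the members to their own median ran from 0.299 for Cdkn1c to 2.35 for Nphs1, with Magi2 under the limit of counts.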

How the data were processed

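RNA from kidney and heart of C57BL/6 mice was read from libraries of poly(A) RNA, 1 per group, with no strand-marking step described. The authors trimmed reads with trim-galore and aligned them to mm10 with HISAT2. The submitters' processing notes give HISAT2 2.1.0 and HTSeq, but no source used here states the version, strand setting or annotation of HTSeq. The deposited values are raw counts of reads per gene. The 5 closing totals of each file, which name no gene, held 65.5% to 72.8% of its reads and were left out. Reads aligned to more than 1 place made up 23.6% to 38.6%.

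Names and exon lengths came from GENCODE M21 (GRCm38, the build of mm10). TMM factors were computed in R 4.3.3 with edgeR 4.0.16, within each tissue for CLP + MLT over CLP and over 4 libraries for levels and tissues, and DESeq2 1.42.0 gave alternative size factors. Ratios were computed in Python 3.11.15 (numpy 2.4.6, pandas 2.3.3, scipy 1.17.1), with a prior count of 0.5, for genes averaging 10 counts or more. Without replicates no dispersion can be estimated, so the study's fold change of 1.5 was kept and its p-value was not used. Intervals are Clopper-Pearson for ratios and Poisson for levels, and PCR copies are not independent molecules. Ratios and intervals were checked on simulated Poisson counts scaled by library size. This checks the arithmetic only, since the simulation held no spread between mice and did not use TMM.

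The 8 genes and the lists were chosen with earlier results of these data known. Named genes were the 8, the 5 nearest in pattern, and overlapping genes. Added to them were up to 3 kept genes per podocyte list with the largest absolute log2 ratio in kidney, in either direction. Of each other list, the 2 genes with the highest level were named. An item of these lists is not reported here and enters none of their counts. Other genes named were chosen after their values were seen. Alternatives were 3 other scalings, no filter or a minimum mean of 50, a larger prior count (5), libraries without mitochondrial and haemoglobin genes, and a fold of 2. Adding antisense counts and counting genes past 4-fold between tissues under other scalings were chosen after seeing the data.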

Additional observations from a re-analysis of the deposited data

Results flagged for a closer look

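Among the genes named, 6 lay on opposite sides of 0 in kidney and heart with both counting intervals free of 0, and none of the 8 podocyte genes was among them. Nes had a log2 ratio of −0.58 in kidney and 0.69 in heart. Plat stood at −0.49 in kidney and 0.31 in heart, and Eng at −0.15 and 0.23. Myl2 stood at 1.81 in kidney, on 10 and 23 counts, and at −1.33 in heart. Ehd3 stood at −0.18 and 0.62, and Akap12 at −0.93 and 0.92, and both were named after their values were seen. Opposite signs of this kind were also found among listed genes that are not named. The share of all genes with such signs was not counted, so the 6 reflect which genes were named. With 1 library per group, these differences between the tissues were not tested.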

How the results depend on the processing

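No paired analysis was possible because each group had 1 library. Both melatonin libraries carry the number 4 in their names, which is not explained, and the other libraries carry none. The median log2 ratio of the 8 genes in kidney went from −0.21 to −0.40 with library size only and differed by less than 0.1 under the other alternatives. In heart it went from 0.0037 to −0.096 with antisense counts added, and 0 of the 8 genes were past the fold under each alternative run. The values of single genes that left their counting interval were those of Nphs1, Podxl (−0.82), Synpo (−0.32) and Cdkn1c in kidney with library size only, and of Nphs1 in heart with antisense counts added. A filter on counts cannot change the value of a single gene.

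The kidney count of the 8 genes past the fold was 2 with library size only and 0 with a fold of at least 2. For all genes, the count past the fold was 10695 in kidney and 10461 in heart with no filter, against 3834 and 3723 as reported. Among genes averaging 50 counts or more it was 2014 and 1870, and it was 1529 and 1559 with a fold of at least 2. The median of kidney over heart moved from 0.07 to 0.50 in CLP and from −0.28 to −0.050 in CLP + MLT with library size only, and to −0.67 in CLP + MLT with the minimum mean of 50, where 7 genes were left. The count of the 8 genes past 4-fold between tissues was 2 in both pairs with library size only, a check chosen after seeing the data. Depth limits Magi2 most in both tissues, and Ptpro after it in heart.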

Other observations

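In the kidney list of parietal epithelium, the cells that line the capsule around the glomerulus, 2 of 6 genes were lower past 1.5-fold, where 11.6% of all genes were, and they are named after their values were seen. The other members were Pax8 (0.02), Vcam1 (−0.15), Pax2 (−0.19) and Ncam1 (−0.25). Cldn1, the claudin of the tight junctions of these cells, went from 325 counts without melatonin to 104 with it, at a log2 ratio of −0.97 (−1.30 to −0.65). Akap12, a scaffold gene for protein kinase A, had 732 and 241 counts, with −0.93 (−1.15 to −0.72). In heart Akap12 stood at 464 and 870 counts and at 0.92 (0.75 to 1.08). None of these values has a replicate.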
